A study of Canis lupus familiaris with 8 samples.

Results

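Transcripts of the claudin family were measured in dog kidney epithelial cells, and the 10 claudins taken up here were chosen by name from the table of 37952 genes: CLDN1, CLDN2, CLDN3, CLDN4, CLDN7, CLDN8, CLDN10, CLDN12, CLDN14 and CLDN16. The cells were of the MDCK GII line, grown overnight as monolayers on a collagen-coated elastic silicone membrane. The 4 control wells were not strained, and the 4 stretch wells were held for 2 hours at 18% strain, equal in both in-plane directions. Both groups came from the same unmodified line, and the submitters describe the wells as technical quadruplicates spread at random over several devices. P-values therefore measure the spread between wells of 1 line, which may be technical. The comparison asks whether claudin transcript levels differ after strain, in a study that, by its title, concerns E-cadherin mechanotransduction and EGFR-ERK signalling.

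Claudins are the membrane proteins that form the strands of the tight junction, where their extracellular loops meet those of the neighbouring cell. Some leave selective pores for ions or water between the cells, and others tighten the seal. In the kidney, each tubule segment carries its own set, which sets how leaky that segment is. Of the members, CLDN2, CLDN10 and CLDN16 were grouped as pore-forming, CLDN1, CLDN3, CLDN4, CLDN8 and CLDN14 as sealing, and CLDN7 and CLDN12, whose reported effect differs between cell types, as context-dependent. CLDN4 and CLDN8 can also take part in a chloride pathway of the collecting duct, so the grouping is a simplification.

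Total counts lay between 27047358 and 32478887 per well and did not separate the groups (two-sided exact permutation p = 0.714; the 70 assignments allow no p under 0.0286). The 7 epithelial markers on the list, among them CDH1, EPCAM and KRT8, were all tested and summed to 5670 to 6425 CPM (counts relative to a TMM-scaled library total) across control wells, against 5965 to 6191 CPM across stretch wells. The listed markers of other cell types summed to at most 2.67 CPM for endothelium, 4.22 CPM for fibroblasts and 1.05 CPM for immune cells in any well, and PTPRC, CD3E, COL1A2, COL3A1, DCN and LUM had 0 counts in every well. Of the epithelial markers, CDH16 was low, at 0.677 to 1.59 CPM in control wells and 1.27 to 2.02 CPM in stretch wells. The label of an epithelial line was thus borne out by the other epithelial markers, and the sum does not speak for CDH16.

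The unstrained monolayer made transcripts of both kinds of claudin, with the cation and water channel CLDN2 highest. To compare genes, levels are given as RPKM, that is, CPM per kilobase of the exon length in the table. CLDN2, a single-exon gene of 953 bases on chromosome X (81081052 to 81082004), stood at 358, 342, 262 and 347 RPKM in control replicates 1 to 4. CLDN7, on chromosome 5 (32430822 to 32432633), followed at 218 ± 10.6 RPKM (mean ± SD, n = 4), and then the sealing claudins CLDN1 at 114 ± 3.51 and CLDN4 at 103 ± 4.79 RPKM. Every control well of CLDN2 lay above every control well of CLDN7, so the rank of CLDN2 did not rest on its mean. In CPM, without division by exon length, CLDN1 was higher, at 363 to 390 CPM in control wells against 250 to 341 CPM for CLDN2.

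CLDN3 came next with 43.2 ± 3.96 RPKM, CLDN16 with 24.2 ± 3.50 and CLDN12 with 12.7 ± 0.651 RPKM (n = 4 control wells each). CLDN8, a sealing claudin of the distal nephron and collecting duct, was far lower at 0.629 ± 0.419 RPKM, 20.2-fold under CLDN12. Neighbours in this order did not overlap over the control wells, down to CLDN8 and CLDN10, while CLDN10 and CLDN14 overlapped. The order is that of annotated exon lengths: an annotation that lacks part of a transcript alters both its length and its reads, and the effect of this on the ranks was not tested.

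**Figure D1:**
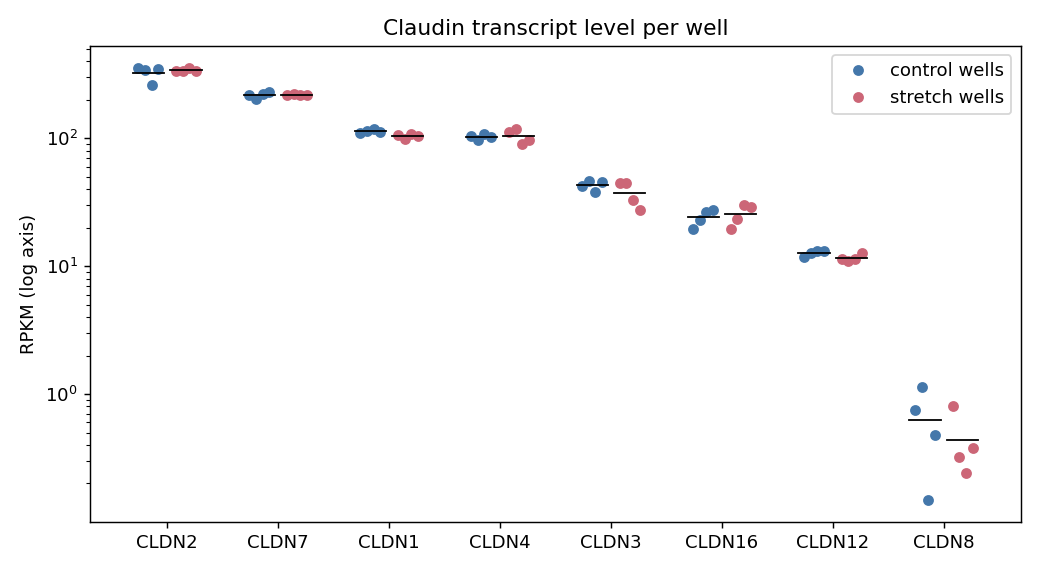
RPKM (log axis) of the 8 claudins with enough counts to be tested, in each of the 4 control and 4 stretch wells; points are wells and lines are group means. CLDN2 is highest, at 262 to 358 RPKM in control wells, CLDN8 is lowest, and in CLDN1 alone of these 8 the groups do not overlap.

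CLDN10 and CLDN14 were close to the limit of detection. CLDN10, which has cation-selective and anion-selective isoforms, had 6, 3, 2 and 3 counts in control replicates 1 to 4 and 4, 0, 1 and 4 in stretch replicates 1 to 4. CLDN14, which in the thick ascending limb opposes the CLDN16 pore, had 5, 7, 0 and 4 counts in control wells and 14, 6, 10 and 2 in stretch wells. Neither passed the filter on low counts, so no change was tested where such a filter was used. In the fits with no filter, with and without the block, both genes were tested and neither was called (edgeR). A count of 0 allows up to 3 counts, or 0.111 CPM in the shallowest well. CLDN14 shares 811 exon bases with LOC111093473 on the opposite strand, and the strand setting of the counting is not given in the sources used here, so its few counts are uncertain.

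After 2 hours of strain, none of the 8 tested claudins passed the test over all genes. In edgeR's quasi-likelihood test without a block, 0 of 8 had an adjusted p (Benjamini-Hochberg over 14571 genes) under 0.05, against 0% of all genes. At an unadjusted p under 0.05 there was 1 of 8, against 3.97% of all genes, and DESeq2 and limma-voom, which called 0.275% and 0% of all genes, gave 0 of 8 adjusted and 1 of 8 unadjusted as well. The replicate number was also fitted as a block, since same-numbered wells deviated together weakly (correlation 0.108 to 0.328). The labels do not say what a number shares. With this block 0 of 8 passed as well, while 0.7% of all genes passed. At an unadjusted p under 0.05 there were 2 of 8 (CLDN1 and CLDN12), against 8.89% of all genes. The fitted log2 changes were above 0 for 4 claudins and below 0 for 4, with a median of -0.055 against -0.0032 over all genes tested. With the block and no filter on low counts, 1 claudin, CLDN3, passed (edgeR, adjusted p = 0.0135), in a fit that called 2.04% of all genes.

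**Figure D2:**
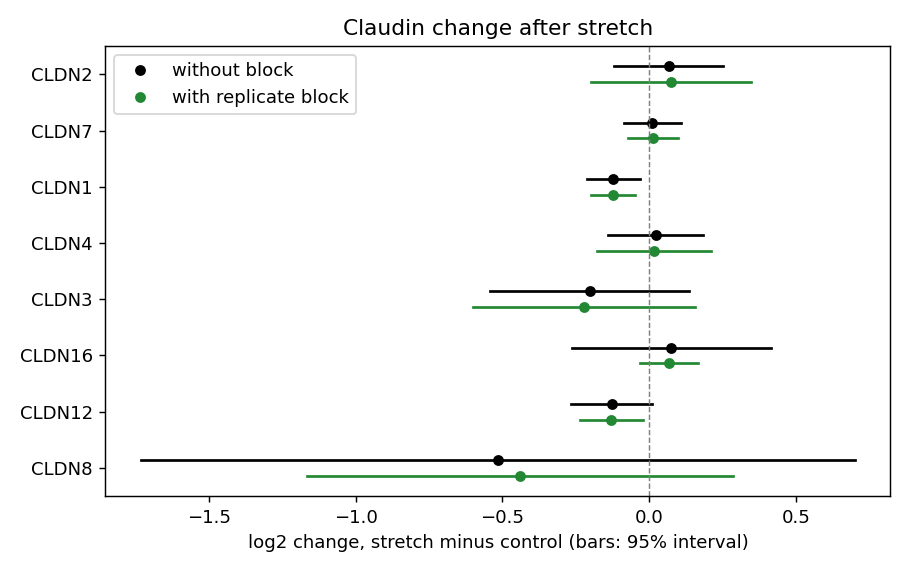
Fitted log2 change (stretch minus control) of the 8 tested claudins with its 95% interval, without a block (black) and with the replicate number as a block (green). The interval without the block includes 0 for 7 of the 8 and lies below 0 for CLDN1; CLDN8 has the widest interval, from -1.73 to 0.70.

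Of the sealing claudins, CLDN1 showed the most regular difference, and a small one. CLDN1 is the barrier claudin without which the skin loses water, and its gene lies on chromosome 34 (22487908 to 22503999, minus strand). It stood at 363, 374, 390 and 369 CPM in control replicates 1 to 4 and at 349, 328, 355 and 344 CPM in stretch replicates 1 to 4. Every stretch well lay below every control well, which held for 1 of the 8 tested claudins and for 1.24% of all genes. The fitted difference was -0.12 ± 0.041 (SE) on the log2 scale, with a 95% interval from -0.21 to -0.032, or a change of -8.09%. It did not pass (edgeR, unadjusted p = 0.0117, adjusted p = 0.999; with the block, unadjusted p = 0.00307 and adjusted p = 0.165). All 4 same-numbered pairs were lower, by 0.056, 0.19, 0.14 and 0.10 in size on the log2 scale, as were all 4 pairs of 7.84% of all genes.

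The wells of replicates 1 and 2 and those of replicates 3 and 4 stood apart in this series, so changes were also fitted within each set. For CLDN1, replicates 1 and 2 alone gave a log2 change of -0.12 and replicates 3 and 4 alone gave -0.11. Over the 26 alternative fits it lay between -0.14 and -0.095, below 0 in all 26, with adjusted p from 0.0589 to 1.00 over edgeR, DESeq2 and limma-voom. The 3 genes whose log2 CPM followed that of CLDN1 most closely over the 8 wells were LOC119864288 (Pearson r 0.97, Spearman rho 0.95), IDUA (0.97 and 0.98) and SOX2 (0.96 and 0.93). These were the highest among 14570 genes, the wells share their depth and scaling between genes, and the values are a description only.

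CLDN3 and CLDN4, a pair of sealing claudins that both bind the Clostridium perfringens enterotoxin, are neighbours on chromosome 6, 39471 bases apart on opposite strands. CLDN3 (6450257 to 6451264) stood at 42.5, 47.1, 38.4 and 46.3 CPM in control replicates 1 to 4 and at 45.1, 45.4, 33.5 and 27.8 CPM in stretch replicates 1 to 4. Stretch replicates 3 and 4 lay under every control well, while stretch replicates 1 and 2 lay among them. CLDN3 had a log2 change of -0.20 ± 0.15 (SE), with an interval from -0.54 to 0.14 (edgeR, adjusted p = 0.999; 0.8 with the block). In replicates 1 and 2 it was 0.012, against -0.46 in replicates 3 and 4 (edgeR, adjusted p = 0.176). The value for CLDN3 was -0.075 without stretch replicate 4, and -0.053 under the block without pair 4.

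CLDN4 (6409111 to 6410786) stood at 175, 163, 182 and 170 CPM in control wells and at 188, 197, 152 and 164 CPM in stretch wells of replicates 1 to 4. The groups overlapped, with stretch replicates 1 and 2 above all control wells and stretch replicate 3 below them. Its log2 change was 0.023 ± 0.075 (SE), with an interval from -0.14 to 0.19 (edgeR, adjusted p = 0.999). In replicates 1 and 2 it was 0.19, against -0.15 in replicates 3 and 4 (edgeR, adjusted p = 0.264 and 0.641), so the sign differed between the sets for CLDN4. A test of that difference was not run. Without control replicate 2, stretch replicate 1 or stretch replicate 2, the pooled change was -8.9e-04, -0.0095 and -0.035.

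**Figure D3:**
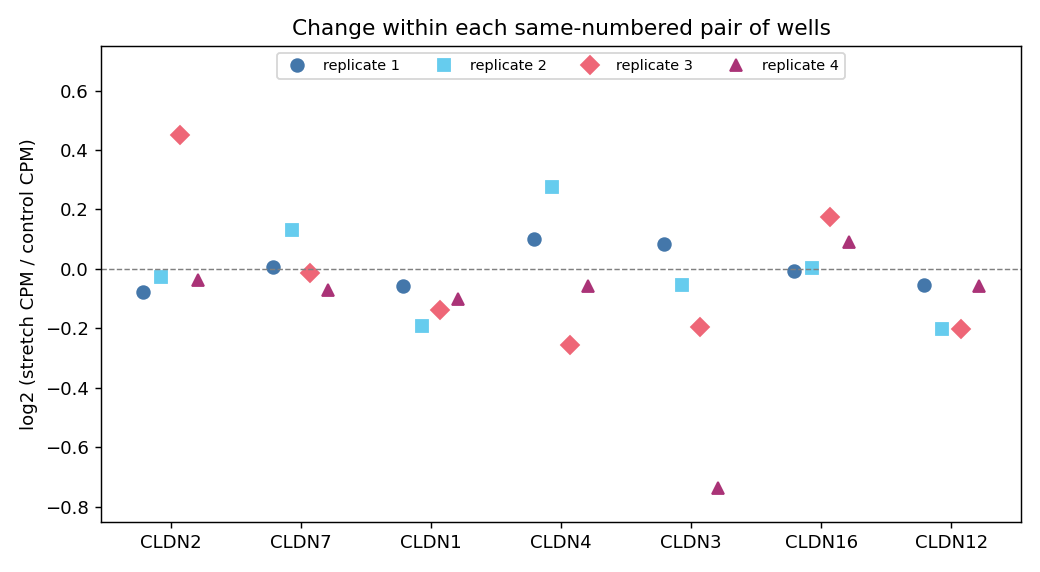
Log2 ratio of stretch to control CPM in each same-numbered pair of wells (replicates 1 to 4) for the 7 tested claudins other than CLDN8. All 4 pairs lie below 0 for CLDN1 and CLDN12, CLDN2 has 1 pair at 0.45 and the other 3 just below 0, and CLDN4 has 2 pairs on each side.

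CLDN8 had few counts, between 10 and 80 per well. It stood at 1.72, 2.59, 0.338 and 1.09 CPM in control replicates 1 to 4 and at 1.85, 0.738, 0.548 and 0.868 CPM in stretch replicates 1 to 4. The groups overlapped, and control replicate 2 alone was above every stretch well. The log2 change of -0.51 ± 0.55 (SE) had an interval from -1.73 to 0.70, which includes both a large fall and a rise (edgeR, adjusted p = 0.999). Over the alternative fits CLDN8 lay between -0.99 and 0.077. The lowest value was that without stretch replicate 1, and the highest that under the block without pair 2.

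Among the pore-forming claudins, CLDN2 differed between groups by less than the spread of the control wells. It stood at 341, 326, 250 and 331 CPM in control replicates 1 to 4 and at 323, 320, 341 and 323 CPM in stretch replicates 1 to 4. Control replicate 3 was low, and the other 3 control wells lay within or just beyond the range of the stretch wells. For CLDN2 the fitted log2 change was 0.067 ± 0.084 (SE), with an interval from -0.12 to 0.25, or a change of -7.86% to 19.1% (edgeR, adjusted p = 0.999; 0.925 with the block). Without control replicate 3 it was -0.025. In 3 of 4 pairs CLDN2 was lower in the stretch well, and in pair 3 it was higher by 0.45.

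CLDN16, the paracellular channel for magnesium and calcium in the thick ascending limb, lies beside CLDN1 on chromosome 34 (22524777 to 22598893), 20778 bases away on the opposite strand. It stood at 67.9, 79.7, 91.4 and 94.3 CPM in control replicates 1 to 4 and at 67.6, 79.9, 103 and 100.4 CPM in stretch replicates 1 to 4. Replicates 3 and 4 were above replicates 1 and 2 in both groups, and the groups overlapped. Its fitted log2 change of 0.076 ± 0.15 (SE) became 0.068 ± 0.047 under the block, with intervals from -0.26 to 0.42 and from -0.030 to 0.17 (edgeR, adjusted p = 0.999 and 0.783). Replicates 1 and 2 alone gave -0.0021, and replicates 3 and 4 alone gave 0.14. Without control replicate 1 or stretch replicate 3 it was -0.0071 and -0.0096.

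CLDN16 was present without the other genes that mark its segment. Its partner in the thick limb pore, CLDN19, had 0 to 3 counts per well. The thick limb genes SLC12A1, KCNJ1 and CASR, which encode the sodium-potassium-chloride cotransporter, a potassium channel and the calcium-sensing receptor, had 0 counts in all 8 wells. UMOD, the gene of uromodulin, reached 0.0367 CPM in 1 well at most.

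The context-dependent claudins were CLDN7, which binds EpCAM and is found along the lateral membrane as well as at the junction, and CLDN12, linked to paracellular calcium. CLDN7 stood at 188, 176, 190 and 198 CPM in control replicates 1 to 4 and at 189, 192, 188 and 188 CPM in stretch replicates 1 to 4. All stretch wells lay within the range of the control wells. CLDN7 had a log2 change of 0.011 ± 0.045 (SE), and an interval from -0.086 to 0.11, or a change of -5.81% to 7.85% (edgeR, adjusted p = 0.999). Without control replicate 2 it was -0.017.

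CLDN12, on chromosome 14 (16256652 to 16267273), stood at 45.3, 48.6, 50.2 and 50.9 CPM in control replicates 1 to 4 and at 43.7, 42.3, 43.7 and 48.8 CPM in stretch replicates 1 to 4. Stretch replicates 1 to 3 lay under every control well and stretch replicate 4 lay among them. On the log2 scale CLDN12 differed by -0.13 ± 0.064 (SE), with an interval from -0.27 to 0.010 (edgeR, unadjusted p = 0.0668, adjusted p = 0.999; with the block, 0.0218 and 0.419). Replicates 1 and 2 alone gave -0.13, and replicates 3 and 4 alone gave -0.12. CLDN12 shares 123 exon bases with CDK14 on the same strand, and how reads in shared bases were counted is not given in the sources used here, so its values are uncertain.

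Summed over members, the pore-forming claudins made up 43.6, 43.4, 36.6 and 42.7% of all claudin RPKM in control replicates 1 to 4 and 42.0, 41.9, 45.6 and 44.3% in stretch replicates 1 to 4. CLDN2 supplied nearly all of this, from 90.8 to 94.7% of the pore-forming sum in controls and from 92.0 to 94.5% after stretch. The sealing claudins made up 31.0 ± 1.87% of controls and 29.2 ± 1.89% of stretch wells (mean ± SD, n = 4), a difference within 1 SD. The ratio of pore-forming to sealing RPKM was 1.46, 1.41, 1.09 and 1.44 in control wells and 1.36, 1.37, 1.67 and 1.60 in stretch wells. The groups overlapped: stretch replicates 3 and 4 were above every control well and stretch replicates 1 and 2 were below 3 of the 4. These sums are a description, with no test. All 10 claudins together took between 0.118 and 0.126% of the counts of a control well, and between 0.119 and 0.123% of those of a stretch well.

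**Figure D4:**
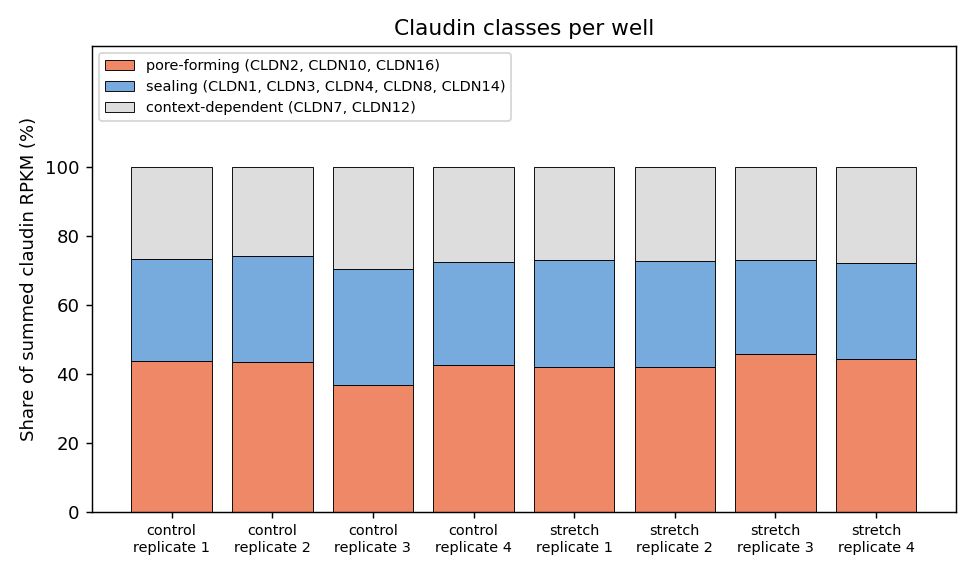
Share of the summed RPKM of the 10 claudins (percent, from 0) held by pore-forming, sealing and context-dependent members in each well. The pore-forming share is 36.6% in control replicate 3 and between 41.9 and 45.6% in the other 7 wells.

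The other tight junction genes were read from lists of membrane partners, scaffolds, claudin-binding or claudin-modifying proteins, and transcription factors known to act on claudin genes. Without a block, 0 of the 48 tested genes of these lists passed in edgeR, against 0% of all genes, and DESeq2 and limma-voom also gave 0. At an unadjusted p under 0.05 there were 3 of the 48, against 3.97% of all genes. With the block, 2 passed, both higher after stretch, against 0.528% of all genes that were higher and called. At an unadjusted p under 0.05 the block gave 8 of the 48, 6 of them among the 13 transcription factors, against 8.89% of all genes. The median over these genes was -0.0063 (log2, no block) and -0.011 (under the block), against -0.0032 and -0.0022 over all genes tested. The lists were chosen with earlier results of these data known, so these counts and medians are a description only.

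Of 8 tested membrane partners, among them occludin (OCLN) and tricellulin (MARVELD2), 0 passed in edgeR in either fit, and 0 had an unadjusted p under 0.05. Those with the smallest p were JAM3, with a log2 change of 0.23 ± 0.18 (SE), and IGSF5, with 0.083 ± 0.087. Of 11 tested genes on the scaffold list, some of which tie claudins to the actin cytoskeleton, 0 passed in either fit. None of them had an unadjusted p under 0.05 in edgeR. SYMPK had a log2 change of -0.055 ± 0.051 (SE). The log2 changes of the 11 scaffolds lay between -0.076 and 0.0060.

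Of 16 tested binding and modifying proteins, PDLIM1, an adaptor of the actin cytoskeleton, passed with the block. It stood at 99.97, 97.2, 111 and 105 CPM in control replicates 1 to 4 and at 110, 116, 133 and 118 CPM in stretch replicates 1 to 4. All 4 pairs were higher, although stretch replicate 1 lay just under control replicate 3. PDLIM1 rose by 0.21 ± 0.042 (SE) on the log2 scale under the block (edgeR, adjusted p = 0.0265), and gave 0.21 ± 0.064 with no block, where it did not pass (edgeR, adjusted p = 0.938). It also did not pass with a block of 2 levels (edgeR, adjusted p = 0.0506), or under the replicate block without pair 1, 2 or 4 (edgeR, adjusted p = 0.120, 0.132 and 0.0837). EPHA2, a receptor tyrosine kinase, is named after its values were seen, because some alternatives called it. It stood at 127, 142, 232 and 197 CPM in control replicates 1 to 4 and at 182, 258, 301 and 252 CPM in stretch replicates 1 to 4, higher in 4 of 4 pairs while the groups overlapped. Its fitted difference of 0.51 ± 0.23 (SE, log2) without a block and 0.53 ± 0.089 with the block did not pass (edgeR, adjusted p = 0.999 and 0.0953), whereas DESeq2 with the block called it (adjusted p = 3.98e-04), as did edgeR with the block without pair 2 (adjusted p = 7.25e-05). EPCAM, which holds CLDN1 and CLDN7 in a complex, had between 480.5 and 582 CPM in controls and between 501 and 558 CPM after stretch, with a log2 change of 0.0063 ± 0.059 (edgeR, adjusted p = 0.999).

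Of 13 tested transcription factors, SNAI2 passed with the block. SNAI2 (Slug) and SNAI1 (Snail) are repressors that bind E-box motifs, in claudin genes among others. SNAI2 stood at 6.90, 7.54, 13.3 and 8.92 CPM in control replicates 1 to 4 and at 10.7, 16.4, 16.7 and 13.6 CPM in stretch replicates 1 to 4. It was higher in 4 of 4 pairs, with control replicate 3 above stretch replicate 1. SNAI2 rose by 0.66 ± 0.11 (SE) on the log2 scale under the block (edgeR, adjusted p = 0.00823), and gave 0.65 ± 0.21 with no block, where it did not pass (edgeR, adjusted p = 0.999). Replicates 1 and 2 alone gave 0.91 and replicates 3 and 4 alone 0.46, and with a block of 2 levels for these sets it did not pass (edgeR, adjusted p = 0.297). Nor did SNAI2 pass under the replicate block without pair 1 or pair 4 (edgeR, adjusted p = 0.0855 and 0.0766).

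SNAI1 and ELF3 are named after their values were seen, because some of the alternatives called them. SNAI1 stood at 7.74, 8.15, 17.8 and 9.32 CPM in control replicates 1 to 4 and at 13.1, 18.9, 15.4 and 13.7 CPM in stretch replicates 1 to 4. Control replicate 3 was above 3 of the 4 stretch wells, and the other 3 control wells were below all of them. SNAI1 had a log2 change of 0.50 ± 0.26 (SE; edgeR, adjusted p = 0.999). Without control replicate 3 it was 0.86 and passed (edgeR, adjusted p = 0.0379), in a fit that called 0.0814% of all genes. For SNAI1, replicates 1 and 2 alone gave 1.00 (edgeR, adjusted p = 0.0053), whereas replicates 3 and 4 alone gave 0.11 (edgeR, adjusted p = 0.99). ELF3, an epithelial ETS factor, was higher in 4 of 4 pairs, by a fitted 0.21 ± 0.054 (SE, log2) under the block (edgeR, adjusted p = 0.115). Whether these factors bear on the claudin levels was not tested.

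**Figure D5:**
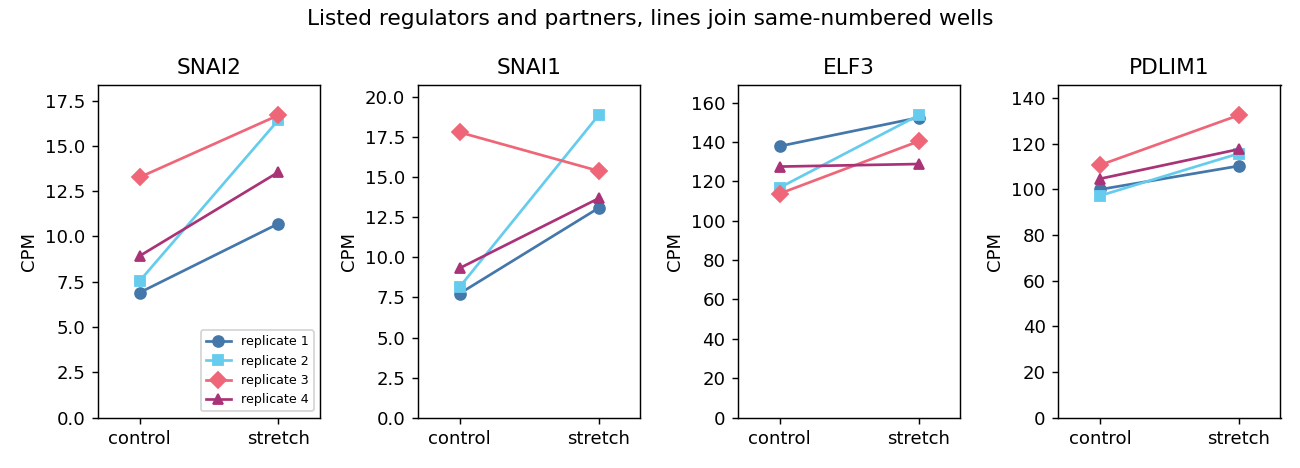
CPM (axes from 0) of SNAI2, SNAI1, ELF3 and PDLIM1 in control and stretch wells, with lines joining wells of the same replicate number. SNAI2, ELF3 and PDLIM1 are higher in the stretch well of all 4 pairs, and SNAI1 in 3 of 4.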

How the data were processed

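RNA was sequenced from 4 control and 4 stretch wells as stranded polyA libraries, per the labels' protocols. The authors deposited raw read counts per gene over exons. The submitters' processing notes list FastQC 0.11.8, Trim Galore 0.6.5, STAR 2.7.3a, Subread and featureCounts, while the genome build and strand setting are not given in the sources used here. Chromosomes were taken from RefSeq's table for the assembly UU_Cfam_GSD_1.0, where 37291 genes had exactly the same start and end.

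Counts were tested in R 4.3.3 with edgeR 4.0.16 (quasi-likelihood, robust, TMM factors, filterByExpr with a minimum count of 10 and total of 15, leaving 14571 genes). P-values are two-sided with a threshold of 0.05, and the script was tested on simulated data. Intervals are 95%. RPKM used the exon length deposited in the same table. Wells of a group differed beyond sampling noise (chi-square per degree of freedom at least 5.56). Same-numbered wells deviated together from their group means (correlation 0.108 to 0.328 over the 4 numbers), so the replicate number was also fitted as a block; the labels do not say what a number shares, and 1 of the 4 control wells correlated best with its own number. DESeq2 1.42.0, limma-voom (limma 3.58.1), other scalings and filters and omitted wells were alternatives. Text names every member, list genes that passed or had the smallest 2 p, and the 3 genes most like the claudin of smallest p. Members and lists were chosen with earlier results of these data known, and CLDN22, JAM2 and PALS1 were not matched by symbol. The value of 1 scaffold gene is not reported here. Figures used matplotlib 3.10.9.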

Additional observations from a re-analysis of the deposited data

Results flagged for a closer look

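Wells were compared within 20 groups of 4 by Dixon's test at the 95% level, which chance alone passes in about 1 of 20. It singled out 3 values, all of replicate 3 and all resting on CLDN2. In control replicate 3, CLDN2 stood at 250 CPM, against 326 to 341 for the remaining control wells. In stretch replicate 3 it stood at 341 CPM, against 320 to 323 for the remaining stretch wells. The pore-forming share of claudin RPKM, which is mostly CLDN2, was 36.6% in control replicate 3 against 42.7 to 43.6% in the remaining control wells. The total counts of these wells, 29950328 and 28912414, were within the range of the series.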

How the results depend on the processing

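The lack of a called claudin held in 25 of the 26 alternative fits, the exception being the replicate block with no filter on low counts, where 1 (CLDN3, log2 change -0.22) passed. Over all genes, the edgeR count of 0 became 102 with the replicate block, 58 with a block of 2 levels (replicates 1 and 2, replicates 3 and 4), 40 with DESeq2 and 11 with no filter on low counts, and lay between 0 and 12 when 1 well was left out. In replicates 1 and 2 alone it was 51, and in replicates 3 and 4 alone 25. With the replicate block it was 145 in DESeq2, 111 with library size only and 448 with no filter, and between 43 and 186 when 1 pair was left out (43, 67, 186 and 74 without pairs 1 to 4). For the tight junction lists the count of 0 became 2 with the replicate block (PDLIM1 and SNAI2), 2 within replicates 1 and 2 (SNAI1 and SNAI2), and between 0 and 1 when 1 well was left out (SNAI1, without control replicate 3). With the replicate block it was 4 in DESeq2 (EPHA2, ELF3, PDLIM1 and SNAI2), 2 with library size only, 5 with no filter (those 4 and SNAI1) and between 0 and 3 when 1 pair was left out (0, 2, 3 and 1 without pairs 1 to 4). In edgeR with the same filter as without the block, the replicate block changed no call among the claudins and lists other than PDLIM1 and SNAI2. Fits within sets of wells, and those that join the block with another choice, were added after seeing the data.

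The fitted log2 changes of CLDN2, CLDN3, CLDN4, CLDN7, CLDN8 and CLDN16 changed sign in some fits, without passing the test where they did. CLDN2 gave -0.053 within replicates 1 and 2, -0.048 with the replicate block without pair 3 and -0.025 to 0.12 without single wells, the lowest without control replicate 3. CLDN3 gave 0.012 within replicates 1 and 2. CLDN4 gave -0.15 within replicates 3 and 4, -0.012 and -0.066 with the replicate block without pairs 1 and 2, and -0.035 to 0.086 without single wells. CLDN7 gave -0.038 within replicates 3 and 4, -0.023 with the block without pair 2 and -0.017 to 0.038 without single wells, the lowest without control replicate 2. CLDN8 gave 0.077 with the block without pair 2. CLDN16 gave -0.0021 within replicates 1 and 2, and -0.0096 to 0.19 without single wells. CLDN1 and CLDN12 kept their sign in all 26 fits. The pore-forming share of 41.6% in control and 43.5% in stretch wells became 32.3 and 34.3% as a share of counts rather than of RPKM, and 57.3 and 59.8% with CLDN7 and CLDN12 left out, as follows from what is summed. The causes of the other differences were not tested. Depth limits CLDN10 and CLDN14.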

Other observations

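Outside the 10 members, the table held 15 other genes named as claudins or claudin-domain proteins, and 6 of them (CLDN5, CLDN11, CLDN17, CLDN20, CLDN24 and CLDN25) had 0 counts in all 8 wells. CLDN5, the claudin of endothelium, was among these. CLDN18, CLDN19 and CLDND2 reached at most 1, 3 and 1 counts. CLDN6, CLDN9, CLDN15 and CLDN23 had between 5 and 51 counts per well, and CLDN34 between 144 and 215. CLDND1, a claudin-domain gene, was the exception with 3118 to 3703 counts. Of the 6 of these genes that were tested, 0 passed in edgeR with or without the block, and 0 had an unadjusted p under 0.05.

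Markers of single tubule segments were uneven. The intercalated-cell proton pump gene ATP6V1B1 had 113 to 125 CPM in control wells and 117 to 123 CPM in stretch wells, whereas SLC4A1 reached 0.0343 CPM at most and FOXI1 had 0 counts. The proximal-tubule receptor gene CUBN had 29.8 to 43.5 CPM in control wells and 28.2 to 49.6 CPM in stretch wells, while its partner LRP2 reached 0.129 CPM. TRPM6, a magnesium channel of the distal convoluted tubule, had 13.4 to 16.0 CPM in control wells, while SLC12A3 of the same segment reached 0.0369 CPM and CALB1 and PVALB had 0 counts. Of the principal-cell genes, the water channel gene AQP2 reached 0.0367 CPM. The water channel gene AQP3 had 9.39 to 10.7 CPM in control wells and 9.49 to 12.0 CPM in stretch wells. The sodium channel subunit genes SCNN1A and SCNN1B had 7.37 to 9.10 and 1.61 to 2.02 CPM in control wells, and 7.24 to 9.67 and 1.61 to 2.42 CPM in stretch wells.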
